A study of Mus musculus with 20 samples.

Results

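The endothelin system genes examined here were Edn1, which encodes the peptide endothelin-1, Ece1, which encodes the converting enzyme that cuts it from its precursor, and Ednra and Ednrb, which encode its receptors. They were taken from the count table by gene symbol, and all 4 were found among its 34255 genes. Their mRNA was measured by QuantSeq, a method that reads 3′ ends and so scores a transcript once whatever its length, in 20 libraries from kidneys of wild-type (WT) male C57BL6/OlaHsd mice, all young adult healthy controls. Laser microdissection from cryosections gave 4 compartments, the arterioles, the glomeruli, the post-capillary venules and the peritubular capillaries, and the fifth group was whole kidney (n = 4 libraries per group). Arterioles, glomeruli and venules were cut from hematoxylin-stained sections and peritubular capillaries from sections stained with a fluorescent lectin, and a cut area can hold cells next to the vessel. The labels call the 4 libraries of a group biological replicates without naming the mouse behind each one, so the p-values measure the spread between these libraries, which may be partly technical.

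Endothelin-1 is a short peptide that endothelial cells and some tubule cells release, and it is known as one of the strongest constrictors of vessels. Furin-type enzymes first cut its long precursor, and Ece1 then releases the active form. Receptor A, on smooth muscle and mesangial cells, raises calcium through Gq proteins and makes the cells contract. Receptor B, on endothelium and collecting duct cells, clears the peptide, releases nitric oxide in endothelium and favours salt excretion in the tubule. In the kidney the system is known for its part in the tone of the arterioles around the glomerulus and in the handling of sodium.

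Libraries held 4639090 to 12283098 counts, so that 3 counts, the limit that a count of 0 allows, equalled 0.206 to 0.640 CPM (edgeR's CPM, the counts of a gene scaled to a common library size with TMM factors, is the unit of all levels below). The limit of 3 counts takes each count as a separate molecule, and the study's methods name no removal of PCR copies. Values per library follow the order 93, 96, 98 and 100, the numbers in the deposited table. Nothing in the sources used here says that a number is a mouse. By the study's methods the compartments were cut from the same mice, so libraries of different compartments may share mice. Pan-endothelial genes, 21 in the table and 19 to 21 detected per library, summed to 5189 to 9318 CPM in arterioles, 4281 to 4880 in glomeruli, 773 to 1994 in capillaries and 1285 to 1987 in venules, against 579 to 712 in whole kidney. Sox18, an endothelial transcription factor, was at 0 in all 4 capillary libraries. Smooth muscle genes (15 of 15 in the table, 14 or 15 detected per library) summed to 27299 to 66750 CPM in arterioles, 3075 to 3812 in glomeruli, 855 to 1420 in capillaries, 1634 to 2257 in venules and 669 to 904 in whole kidney. Podocyte genes summed to 8172 to 9586 CPM in glomeruli and at most 1763 in any other library. Proximal tubule genes summed to 63847 to 119681 CPM in capillaries, against 35291 to 36694 in whole kidney, so the capillary libraries held much tubule RNA. Collecting duct genes summed to 56.5 to 100.1 CPM in glomeruli and to 179 to 1218 CPM in the other 16 libraries. In such bulk samples, fewer cells of a type and less RNA per cell cannot be told apart. Microdissected libraries were also made from less RNA and with more PCR cycles than those of whole kidney, and this difference cannot be told apart from the comparison with whole kidney.

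The genes lie on 4 chromosomes of GRCm38 (GENCODE M21). Edn1 (ENSMUSG00000021367) spans 42301476 to 42307990 on the plus strand of chromosome 13. Ece1 (ENSMUSG00000057530) spans 137862237 to 137965229 on the plus strand of chromosome 4. Ednra (ENSMUSG00000031616) spans 77663031 to 77724464 on the minus strand of chromosome 8, and Ednrb (ENSMUSG00000022122) spans 103814625 to 103844402 on the minus strand of chromosome 14. Antisense or noncoding genes overlap Edn1, Ednra and Ece1 in the annotation, and these took 0, 1 and 0 counts in the 20 libraries together, against 4654, 2423 and 22048 for the members themselves. Reads of opposite strands at these places cannot be told apart if the counting ignored strand, which no source used here states.

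The active part of the ligand is shown because it separates Edn1 from its relative Edn3, a second endothelin gene whose levels are given beside it. The 63 bases below code for the 21 residues of each mature peptide, in exon 2 of the annotated transcript, at chr13:42303649-42303711 for Edn1 and chr2:174761749-174761811 for Edn3, both on the plus strand. Capitals mark the codons of the 4 cysteines that hold the peptide's loop together.
Edn1: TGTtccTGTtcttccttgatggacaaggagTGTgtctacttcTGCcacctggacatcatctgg
Edn3: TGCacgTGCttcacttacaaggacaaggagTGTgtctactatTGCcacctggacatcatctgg
The sequences shared 50 of 63 bases.

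The promoter of Edn1, from 250 bases before to 50 bases after the annotated start (RefSeq, GRCm38.p6, chr13:42301226-42301525, plus strand), is shown because regulators known to bind it are among the genes measured below.
Edn1 promoter: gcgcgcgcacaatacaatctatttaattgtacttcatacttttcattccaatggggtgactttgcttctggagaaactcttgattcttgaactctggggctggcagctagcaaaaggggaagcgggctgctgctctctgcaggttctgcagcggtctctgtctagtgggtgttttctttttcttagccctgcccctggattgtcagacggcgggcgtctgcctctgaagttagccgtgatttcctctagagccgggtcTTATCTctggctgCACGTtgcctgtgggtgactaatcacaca
Capitals mark an AGATAA match, the letters bound by GATA factors, and an ACGTG match, the core bound by hypoxia-inducible factors. Both lie on the minus strand, 8 and 21 bases after the annotated start. Reads near the 3′ end cannot check that start, so these distances hold for the annotation only. Searched on both strands, AGATAA occurred in 11.2% and ACGTG in 19.6% of all 32851 mouse promoter windows of this length, so each match is common. The letters TATAAA (13.6% of windows), TGANTCA for AP-1 (7.81%) and the CArG box (1.63%) had no match in this window. Only these fixed patterns were searched, so a variant site, or a site outside the window around the annotated start, would be missed. Of the 6 promoter windows of the other members (4 of them alternative starts of Ece1), only 1 Ece1 start held a match, with ACGTG on both strands from 90 and 89 bases before the start. The overlapping matches at that Ece1 start form 1 palindrome. Reads near the 3′ end do not tell which Ece1 start was used.

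Edn1, the ligand, was highest in arterioles and lowest in peritubular capillaries. In arterioles it stood at 99.8, 256, 89.6 and 1.61 CPM, a mean of 112 ± 106 (SD, n = 4). Arteriole 100 thus lay at the whole kidney level, while the other 3 arteriole libraries exceeded every library of the other groups. In whole kidney the values were 1.52, 2.42, 3.63 and 3.21 CPM, a mean of 2.695 ± 0.932. In glomeruli they were 1.40, 18.0, 30.9 and 16.9 CPM (mean 16.8 ± 12.1), with 3 of 4 above all whole kidney libraries and 1 below them. Venules were split, at 0.224, 47.0, 0.185 and 71.1 CPM (mean 29.6 ± 35.4), with 2 libraries far above whole kidney and 2 at or under 3 counts. In capillaries Edn1 gave 17 counts in all 4 libraries together and stood at 0.124, 0.442, 1.17 and 0.587 CPM (mean 0.580 ± 0.436), below whole kidney in 4 of 4 libraries.

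Ece1, the converting enzyme, was detected well in every library and was likewise highest in arterioles, but lowest in whole kidney. Its levels in arterioles were 209.8, 781, 223 and 246 CPM, a mean of 365 ± 278 (SD, n = 4), and the high mean owed much to arteriole 96. Glomeruli stood at 156, 184, 164 and 89.3 CPM (148 ± 41.0), and venules at 102.9, 97.96, 109 and 88.1 CPM (99.4 ± 8.73). Capillaries stood at 82.0, 37.0, 56.0 and 68.5 CPM (60.9 ± 19.1), and whole kidney at 45.6, 38.70, 50.7 and 45.0 CPM (45.0 ± 4.92). All arteriole libraries lay above all libraries of the other groups, and glomeruli and venules overlapped each other but not whole kidney. Capillaries and whole kidney overlapped.

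Ednra, the receptor of contractile cells, had its highest mean in arterioles but over a wide range, at 186, 87.1, 11.6 and 23.0 CPM (77.0 ± 80.1, SD, n = 4). In whole kidney it stood at 2.23, 0.691, 1.64 and 2.46 CPM, a mean of 1.75 ± 0.787, so that arterioles and whole kidney did not overlap. Glomeruli stood at 27.2, 8.18, 1.40 and 4.19 CPM (10.3 ± 11.7), with 1 of 4 inside the arteriole range and 3 below it. Capillaries held 5.84, 0, 8.74 and 0.196 CPM (3.70 ± 4.32). Venules held 0.560, 20.2, 0 and 0.268 CPM (5.25 ± 9.95), where 166 of the 173 counts came from venule 96. The 0 of capillary 96 allows up to 0.442 CPM and that of venule 98 up to 0.556 CPM.

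Ednrb, the receptor of endothelium and collecting duct, was even in whole kidney and scattered elsewhere. Its whole kidney levels were 10.8, 12.4, 14.9 and 10.4 CPM (12.1 ± 2.03, SD, n = 4). In arterioles it stood at 1.49, 0.483, 88.9 and 106.5 CPM (49.4 ± 56.3), so that 2 libraries lay below and 2 far above whole kidney. Capillaries were split likewise, at 0.373, 28.2, 0.816 and 83.3 CPM (28.2 ± 39.0). Glomeruli were the most even of the microdissected groups, at 29.6, 12.9, 25.3 and 53.2 CPM (30.2 ± 16.8), with 3 of 4 above all whole kidney libraries. Venules stood at 8.85, 0.608, 4.45 and 19.6 CPM (8.36 ± 8.19). By mean level the order was arterioles, venules, glomeruli, whole kidney and capillaries for Edn1, and arterioles, glomeruli, venules, capillaries and whole kidney for Ece1 and Ednra. For Ednrb it was arterioles, glomeruli, capillaries, whole kidney and venules, and no neighbours in these orders differed at FDR under 0.05.

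**Figure D1:**
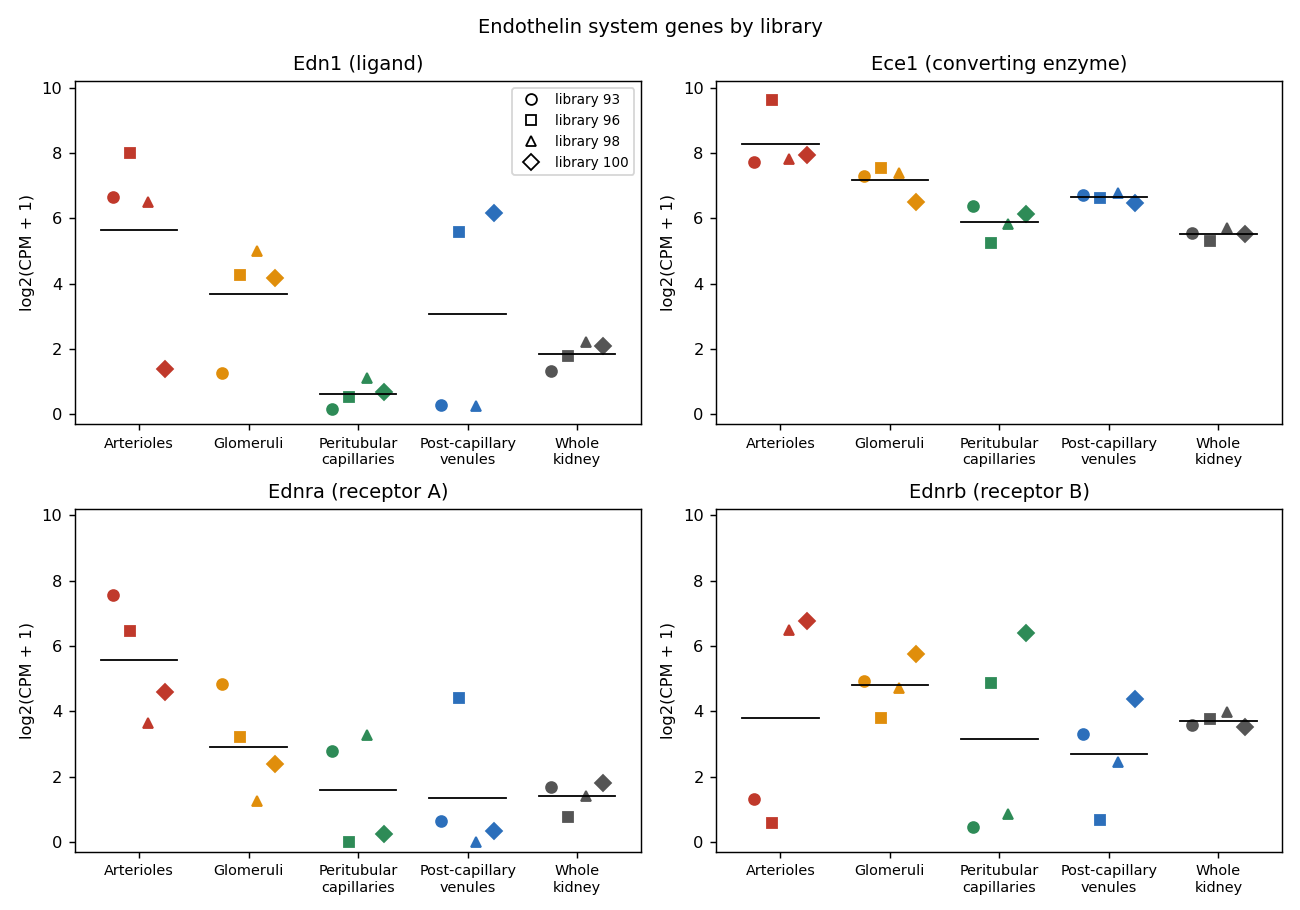
Level of each gene in each library, as log2(CPM + 1), for the 5 groups, with a marker shape per library number and a line at the mean of the 4 log values. Ece1 varied little within groups apart from arteriole 96, while Edn1, Ednra and Ednrb covered wide ranges within the microdissected groups and narrow ones in whole kidney.

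The spread between libraries was therefore part of the result. The coefficient of variation of Edn1, Ednra and Ednrb in arterioles was 94.8%, 104% and 114%, close to the median of 115% among genes with a mean of at least 10 CPM there. Ece1 varied by 76.2% in arterioles, but by 27.6% in glomeruli, 31.4% in capillaries and 8.78% in venules, each below the medians of 57.6%, 83.7% and 72.3% for such genes. In whole kidney the 4 genes varied by 34.6%, 44.9%, 16.7% and 10.9% for Edn1, Ednra, Ednrb and Ece1. There the median was 14.0% among genes of at least 10 CPM, which Edn1 and Ednra did not reach, and 18.8% among all genes tested.

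Against whole kidney, Edn1 and Ece1 rose in arterioles, and no other gene of the 4 was called in any compartment. A call needed FDR under 0.05 (Benjamini-Hochberg over 13813 genes, edgeR quasi-likelihood F test) and an absolute log2 fold change of more than 1. The ratio of mean CPM was 41.5 for Edn1, with a log2 fold change of 5.37 ± 1.62 (SE, FDR 0.0276) and 3 of 4 arteriole libraries above all whole kidney libraries. For Ece1 it was 8.11, with a log2 fold change of 3.02 ± 0.60 (FDR 0.000677) and 4 of 4 libraries above. Among all genes, 11.3% were called in arterioles against whole kidney. The median log2 fold change of the 4 members was 4.19, beside 0.22 for all genes tested. The Edn1 call was lost without arteriole 96 (log2 fold change 4.55, FDR 0.0850) and without any 1 of the whole kidney libraries (FDR 0.0748 to 0.0868), whereas the Ece1 call held without each library in turn, at a log2 fold change of 2.32 (FDR 0.00712) without arteriole 96. The pan-endothelial sum was higher in the same comparison, at 5189 to 9318 CPM in arterioles against 579 to 712 CPM in whole kidney. Per 100 pan-endothelial counts, Ece1 had the lower mean in arterioles, 4.999 against 6.99, at -0.58 in mean log2 ratio (exact permutation p 0.171, n = 4 each), so the rise in CPM was not seen on that scale. Arteriole 96, on which several calls depend, also held the highest sums of pan-endothelial (9318 CPM), smooth muscle (66750 CPM) and erythrocyte genes (76555 CPM, against 10528 to 30338 in the other arterioles), and its TMM factor was 0.545 against 0.772 to 1.02. The part of these features in the calls was not tested.

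Ednra had as large a fold change in arterioles as Edn1 but missed the threshold. Its mean was 43.9 times that of whole kidney, at a log2 fold change of 5.44 ± 1.91 (FDR 0.0552), with 4 of 4 libraries above all whole kidney libraries. Ednra was called in 12 of 27 alternative analyses, among them those with the 8 libraries of the pair alone (FDR 0.00631), and FDR ranged from 0.000422 to 0.127 over them. The smooth muscle sum was 27299 to 66750 CPM in arterioles against 669 to 904 CPM in whole kidney. The part of smooth muscle content in the Ednra value was not tested. Ednrb in arterioles gave a log2 fold change of 2.02 ± 1.49 (FDR 0.349), with 2 libraries above and 2 below the whole kidney range.

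In glomeruli none of the 4 genes was called, against 3.06% of all genes. Ece1 came closest, with a mean 3.30 times that of whole kidney, a log2 fold change of 1.72 ± 0.57 (FDR 0.0887) and 4 of 4 libraries above. Edn1 gave 2.63 ± 1.43 on the log2 scale (FDR 0.405), Ednra 2.54 ± 1.67 (FDR 0.573) and Ednrb 1.32 ± 1.46 (FDR 0.834). In peritubular capillaries the background was 0.0941% and none of the 4 was called. There Edn1 was the 1 member with a mean below whole kidney, at a log2 fold change of -2.18 ± 1.43 (FDR 0.598) and 4 of 4 libraries below. Ece1 stood at 0.44 ± 0.56 (FDR 0.876). In venules 0.224% of genes were called, and again none of the members. Edn1 gave 3.45 ± 1.48 (FDR 0.414) and Ece1 1.14 ± 0.56 (FDR 0.527), the latter with 4 of 4 libraries above whole kidney. Over the 4 compartments, 2 of 16 member comparisons were called, and 6 had an unadjusted p under 0.05, as did 17.5% of all tests of all genes. The 4 comparisons share the whole kidney libraries.

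**Figure D2:**
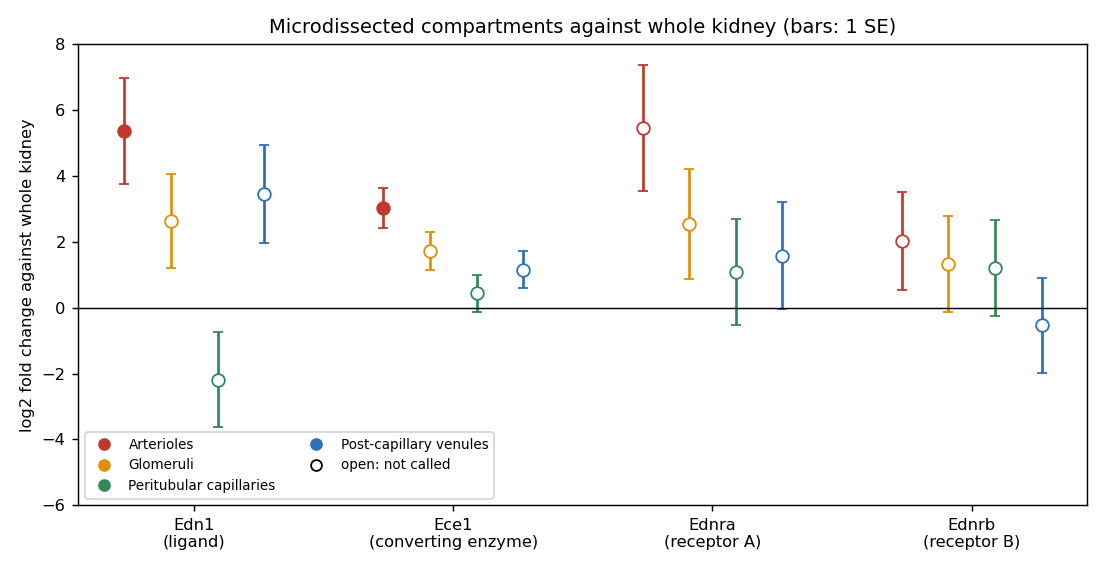
Log2 fold change of each gene in each microdissected compartment against whole kidney, with bars of 1 SE from the 20-library fit. Filled points, Edn1 (5.37) and Ece1 (3.02) in arterioles, passed the call, and open points did not.

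Between compartments, the ligand and its converting enzyme separated arterioles from peritubular capillaries. In the fit of the 16 microdissected libraries (12179 genes, FDR under 0.05), Edn1 was 193 times as high in arterioles by ratio of means, at a log2 fold change of 7.55 ± 1.94 (FDR 0.00823). The size of this fold is uncertain, since it rests on 17 capillary counts with 3 of 4 libraries at or under 3 counts, and without arteriole 96 the log2 fold change was 6.81 (FDR 0.0282) and without capillary 98 it was 8.15. Ece1 was 5.997 times as high, at 2.58 ± 0.66 (FDR 0.00839). Both were higher in 4 of 4 arteriole libraries than in any capillary library, and 11.2% of all genes were called in this pair. Without arteriole 96 the Ece1 difference fell to 1.92 (FDR 0.0603). Proximal tubule genes, highest in the capillary libraries, summed to 8214 to 15859 CPM in arterioles, and their part in these differences was not tested. The pan-endothelial sum differed in the same direction, at 5189 to 9318 CPM in arterioles and 773 to 1994 in capillaries. Per 100 pan-endothelial counts Ece1 differed by -0.21 in mean log2 ratio between arterioles and capillaries (exact permutation p 0.629, n = 4 each) and Edn1 by 3.78 (exact permutation p 0.114). Ednra differed by 4.38 ± 1.97 in the same pair (FDR 0.135), with no overlap between the groups.

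The other 5 pairs of compartments held no call among the members. Arterioles and glomeruli, where 2.19% of genes were called, differed in Ece1 by 1.30 ± 0.64 on the log2 scale (FDR 0.259), without overlap. Arterioles and venules (4.38% of genes) differed in Ece1 by 1.87 ± 0.65 (FDR 0.0865), also without overlap. Glomeruli and capillaries (4.49% of genes) differed in Edn1 by 4.81 ± 1.71 (FDR 0.102), with 4 of 4 glomerular libraries above all capillary libraries. Glomeruli and venules (1.22% of genes) held no member with an unadjusted p under 0.05. Capillaries and venules (0.411% of genes) differed in Edn1 by -5.64 ± 1.78 (FDR 0.210), though the groups overlapped because of the 2 venule libraries with few Edn1 counts. Over the 6 pairs, 2 of 24 member comparisons were called and 7 had an unadjusted p under 0.05, as did 18.5% of all tests of all genes. By mean CPM, arterioles and capillaries stood at the ends of the 4 compartments for Edn1 and Ece1, whereas per pan-endothelial count the ends for Ece1 were venules and glomeruli.

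Of the 4 genes, Ece1 met the rule for an arteriolar marker mRNA, which asks for FDR under 0.05 against the mean of the other 3 compartments and at least 10 CPM in all 4 libraries. Its log2 fold change was 1.92 ± 0.47 (FDR 0.00542), and 4.76% of all genes were arteriolar markers. This call was lost without arteriole 96 (log2 fold change 1.26, FDR 0.126). Edn1 had the larger difference, 4.06 ± 1.08 (FDR 0.0107), but arteriole 100 lay below the minimum. Ednra reached 3.72 ± 1.28 (FDR 0.0520). No member was a marker of glomeruli, capillaries or venules, where 1.48%, 3.24% and 0.23% of genes were. In the opposite direction, Edn1 was lower in capillaries than in the mean of the other compartments, at -6.002 ± 1.74 (FDR 0.0270), as were 2.91% of all genes at that FDR. The groups overlapped, with 1 of 4 capillary libraries below all others, and FDR was 0.0510 to 0.0813 without any 1 capillary library.

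The balance of the receptors was read within each library, as the share of Ednra in the summed counts of Ednra and Ednrb, which does not depend on scaling between libraries. In arterioles the share was 99.2%, 99.4%, 11.5% and 17.8%, so that 2 libraries held nearly only Ednra and 2 mostly Ednrb. Exact 95% binomial intervals, which cover counting error only, ran from 98.4% to 99.9% in arteriole 96 and from 9.50% to 13.8% in arteriole 98. They treat each count as a separate molecule and may be too narrow, since the study's methods name no removal of PCR copies. Glomeruli gave 48.0%, 38.74%, 5.25% and 7.31%, with more Ednrb than Ednra counts in 4 of 4 libraries, though in glomeruli 93 (272 and 295 counts) the interval of 43.8% to 52.2% included equal counts. Capillaries gave 94.0%, 0%, 91.5% and 0.234%, and venules 5.95%, 97.1%, 0% and 1.35%. The 0% of capillary 96 rested on 191 receptor counts and had an upper bound of 1.91%, and that of venule 98 rested on 24 counts with an upper bound of 14.2%. Whole kidney was even, at 17.1%, 5.26%, 9.96% and 19.1%, with Ednrb the more abundant in every library.

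Group means of the Ednra share were 56.99 ± 49.0% in arterioles, 24.8 ± 21.8% in glomeruli, 46.4 ± 53.5% in capillaries, 26.1 ± 47.4% in venules and 12.8 ± 6.40% in whole kidney (SD, n = 4). The differences were within the spread between libraries. Of 10 pairs of groups, arterioles against whole kidney gave the smallest p, 0.143 in an exact two-sided permutation test (adjusted 0.735), at a difference of 44.1 percentage points.

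**Figure D3:**
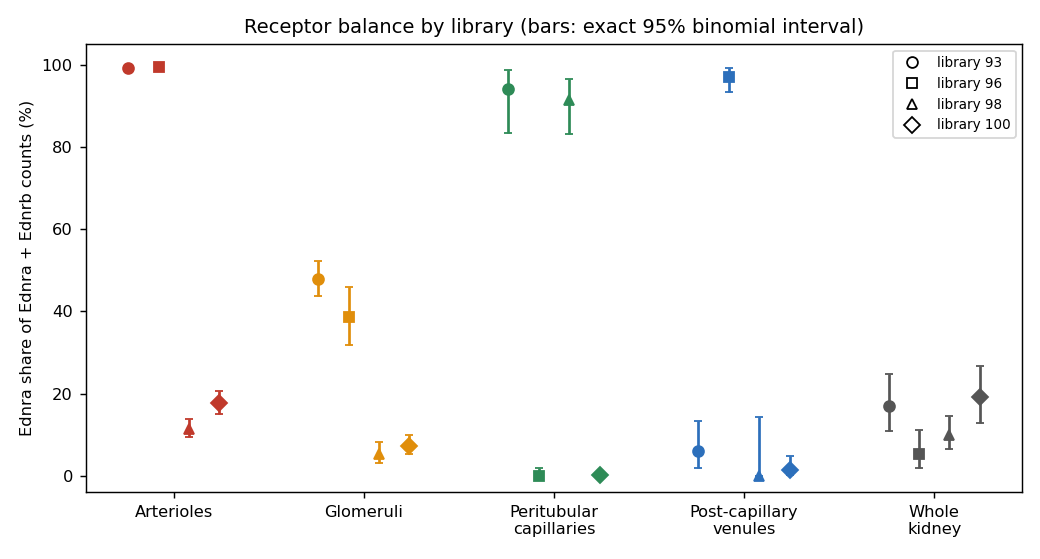
Share of Ednra in the summed Ednra and Ednrb counts of each library, in percent, with exact 95% binomial intervals. Whole kidney libraries lie between 5.26% and 19.1%, while arterioles are split between 11.5% to 17.8% and 99.2% to 99.4%, and capillaries between 0% to 0.234% and 91.5% to 94.0%.

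Scaled to pan-endothelial counts, the order of the groups changed for the converting enzyme. The list includes Kdr, Emcn and Vwf, whose RNA or protein the paper describes as uneven between compartments. Its sum is therefore not a pure measure of endothelial content, and cells of other types may add counts of the members. The part of either in the ratios was not tested. Per 100 counts of the 21 pan-endothelial genes, Ece1 gave 4.999 ± 2.38 counts in arterioles, 3.22 ± 1.01 in glomeruli, 5.57 ± 1.82 in capillaries, 6.08 ± 0.860 in venules and 6.99 ± 1.16 in whole kidney (SD, n = 4). On this scale Ece1 was lower in glomeruli than in whole kidney by 1.17 in mean log2 ratio, below all whole kidney libraries in 4 of 4 (exact two-sided permutation p 0.0286, the smallest that 4 against 4 can give, adjusted 0.229 over 40 comparisons). Glomeruli against venules gave the same p with a difference of -0.97. By CPM, glomeruli had the higher Ece1 mean in both of these pairs.

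Edn1 per 100 pan-endothelial counts was 1.44 ± 1.12 in arterioles, 0.358 ± 0.249 in glomeruli, 0.0585 ± 0.0549 in capillaries, 1.98 ± 2.62 in venules and 0.412 ± 0.136 in whole kidney (SD, n = 4). Venule 100 gave the highest value, 5.54, and venules 93 and 98 the lowest of their group, 0.0143 and 0.0101. Capillaries lay below whole kidney by 3.05 in mean log2 ratio (exact permutation p 0.0286, adjusted 0.229). Arterioles against whole kidney gave an exact permutation p of 0.714 on this scale, since arteriole 100 stood at 0.0310.

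Ednrb per 100 pan-endothelial counts was 0.640 ± 0.338 in glomeruli and 0.591 ± 0.659 in venules, each below 1.87 ± 0.316 in whole kidney in 4 of 4 libraries (SD, n = 4; exact permutation p 0.0286 and adjusted 0.229 for both). Collecting duct genes, markers of the other cell type known to carry this receptor, summed to 56.5 to 100.1 CPM in glomeruli and 582 to 657 CPM in whole kidney, and to 848 to 1218 CPM in venules, so that the list was low in 1 of these groups and high in the other. Their part in the Ednrb values was not tested. Ednra per 100 pan-endothelial counts averaged 1.03 ± 1.06 in arterioles and 0.277 ± 0.133 in whole kidney. None of the 40 comparisons passed adjustment, and 5 had an exact permutation p under 0.05. Adjustment could be passed only if many comparisons reached the smallest possible p of 0.0286, so its outcome says little.

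**Figure D4:**
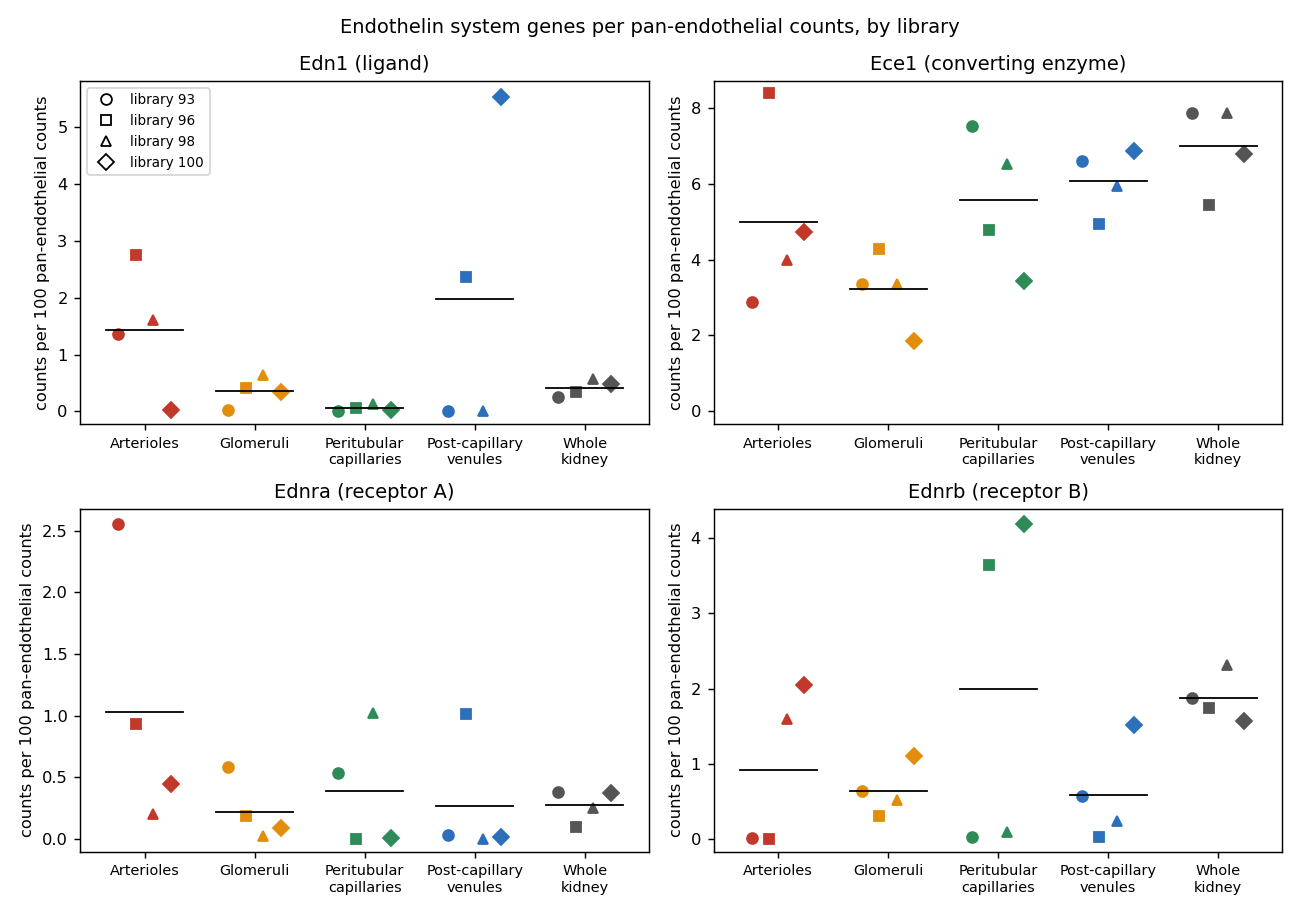
Counts of each gene per 100 counts of the 21 pan-endothelial genes in each library, with a line at the group mean. Ece1 in glomeruli (1.85 to 4.29) lies below whole kidney (5.43 to 7.87), and venule 100 stands highest for Edn1.

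Among the relatives of these genes, Edn3 gave few counts and Ece2 none. In whole kidney Edn3 gave 138 counts, at 3.21 ± 0.669 CPM (SD, n = 4), more than the 123 of Edn1. It gave 107 counts in glomeruli and 1 in arterioles. In capillaries and venules all of its 29 and 57 counts came from 1 library each. Ece2, a second converting enzyme, had 0 counts in all 20 libraries. Overlapping genes were checked for the 4 members only, so no upper limit is given for Ece2. Edn2 was listed too, but its symbol was not found in the count table, so no level can be given. Furin, which makes the first cut in the precursor, stood at 147 CPM in arterioles and 124 in whole kidney (FDR 0.784), and at 274 in capillaries (FDR 0.395 against whole kidney, without overlap). Mme, which encodes the peptidase neprilysin that degrades endothelins, averaged 37.0 CPM in arterioles, 85.0 in glomeruli and 61.5 in whole kidney (FDR 0.669 and 0.946). None of the 3 tested genes of this list was called in any comparison.

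Of the wider pathway, 62 of 63 listed genes were in the table and 58 passed the filter for comparison with whole kidney. In arterioles 18 of the 58 rose and none fell, with a median log2 fold change of 2.14, beside the 11.3% of all genes called in either direction. In glomeruli 8 of 58 rose (median 1.38, background 3.06% in either direction), in venules 1 and in capillaries 0. Of all 13813 genes, 798 were called higher in arterioles, 219 in glomeruli, 28 in venules and 12 in capillaries. The smooth muscle, endothelial and podocyte sums given above differ between these groups in the same comparisons, and their part in the counts was not tested.

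Genes between the receptor and contraction rose most in number in arterioles. Of the 11 tested genes of the contraction list, 5 rose, beside 11.3% of all genes called in either direction. Mylk, the kinase that phosphorylates myosin light chain, stood at 4956 ± 1459 CPM in arterioles, 1214 ± 125 in glomeruli and 268 ± 55.0 in whole kidney (SD, n = 4), called in both compartments. Ppp1r12a, the targeting subunit of myosin phosphatase, rose 11.3-fold in arterioles, and Rock1, a kinase that inhibits this phosphatase, 5.07-fold (FDR 0.00450). Ppp1r14a, an inhibitor of the phosphatase, stood at 98.9 to 659 CPM in arterioles and 3.34 to 4.86 in whole kidney (FDR 0.00674). Mylk and Ppp1r14a also belong to the smooth muscle list. In glomeruli Arhgef12, an exchange factor for small G proteins, rose 3.79-fold (FDR 0.0140).

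Of the 16 genes for G proteins and phospholipase C, 4 rose in arterioles, beside 11.3% of all genes called in either direction. Gnaq and Gna11, G proteins through which receptor A acts, were 4.14 and 4.88 times as high as in whole kidney (FDR 0.0469 and 0.0195). Gnai2, an inhibitory G protein, was 4.59 times as high (FDR 0.000117) and was the 1 gene of the list that also rose in glomeruli, 3.81-fold (FDR 0.00140). Itpr3, a calcium channel of internal stores, was 41.5 times as high (FDR 0.0299), with overlapping groups. Plcb2, a phospholipase, had 0 counts in all 4 arteriole libraries and 14.0 ± 5.04 CPM in glomeruli (SD, n = 4, FDR 0.0904 between them).

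Among the 10 genes of receptor desensitisation, Rgs5, Rgs2 and Arrb1 rose in both arterioles and glomeruli. There 11.3% and 3.06% of all genes were called in either direction. Rgs2, which shortens Gq signals, had group means of 331 ± 50.02 CPM in arterioles, 386 ± 155 in glomeruli, 21.2 ± 29.3 in capillaries, 48.5 ± 52.5 in venules and 45.9 ± 13.9 in whole kidney (SD, n = 4). Arrb1, an arrestin that binds activated receptors, averaged 481 ± 194 CPM in arterioles, 483 ± 142 in glomeruli and 52.8 ± 4.69 in whole kidney. Rgs5, a pericyte and smooth muscle gene that is also in the mesangial and pericyte list, was the 1 gene of all lists called in venules, at 3.48 times whole kidney (FDR 0.0105). Between arterioles and glomeruli it differed 20.1-fold, while Rgs2 and Arrb1 were not called in that pair.

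In the nitric oxide branch, through which receptor B opposes constriction, 3 of 7 genes rose in arterioles and none in glomeruli. The shares of all genes called there in either direction were 11.3% and 3.06%. Nos3, the endothelial nitric oxide synthase, stood at 464 ± 43.8 CPM in arterioles, 25.7 ± 3.50 in glomeruli, 11.9 ± 19.6 in capillaries, 23.0 ± 22.8 in venules and 6.06 ± 1.54 in whole kidney (SD, n = 4). Its 4 arteriole libraries lay within 428 to 526 CPM, a far narrower range than that of Edn1 in the same libraries. Prkg1, the kinase that answers to cyclic GMP, stood at 88.9 ± 49.6 CPM in arterioles and 2.50 ± 0.436 in whole kidney (FDR 0.0168).

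Of 11 regulators of Edn1 transcription, Epas1, Klf2 and Jun rose in arterioles and Epas1 and Klf2 in glomeruli. Of all genes, 11.3% and 3.06% were called in either direction. Epas1, a hypoxia-inducible factor of endothelium, stood at 1598 ± 800 CPM in arterioles, 645 ± 117 in glomeruli, 103.6 ± 23.8 in capillaries, 213 ± 65.2 in venules and 83.8 ± 9.50 in whole kidney (SD, n = 4). Klf2, a flow-sensitive factor known to lower Edn1 transcription in endothelial cells, stood at 372 ± 130, 161 ± 48.0, 8.71 ± 6.06, 68.6 ± 16.4 and 25.3 ± 4.02 CPM in the same order. Klf2 was the 1 related gene called between capillaries and venules, 7.87 times lower in capillaries (FDR 0.0485). Jun, a subunit of AP-1, was 6.24 times as high in arterioles as in whole kidney (FDR 0.0294).

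**Figure D5:**
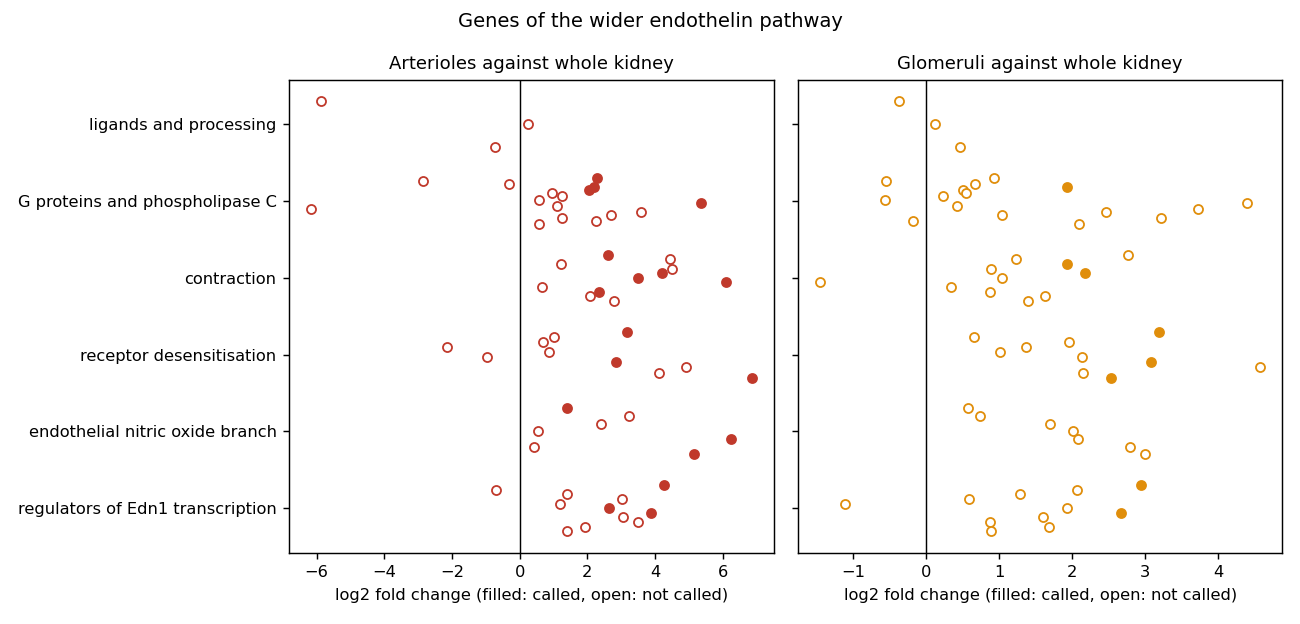
Log2 fold changes against whole kidney of the tested genes of the 6 related lists, in arterioles and glomeruli, with 1 point per gene and filled points for calls. In arterioles 18 of 58 points are filled and in glomeruli 8, every filled point lies to the right of 0, and the 2 panels have different horizontal scales.

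Between compartments, related genes separated arterioles from capillaries in 16 of 57 tested and from venules in 12, all higher in arterioles. Of all genes, 11.2% and 4.38% were called in either direction in these pairs. Glomeruli exceeded capillaries in 10 of 57, beside 4.49% of all genes called in either direction. Rgs3, a further regulator of G protein signals, was among them (53.5 ± 20.2 against 0.381 ± 0.0704 CPM, FDR 0.0397). Glomeruli fell below capillaries in Ppp1r14a. This call rested on overlapping groups, at 0.501 to 3.86 CPM in glomeruli and 0.249 to 235.7 in capillaries. Between arterioles and glomeruli 2.19% of all genes were called in either direction, and 162 of 12179 were called higher in arterioles. Arterioles exceeded glomeruli in 5 of 57 related genes (Mylk, Ppp1r12a, Ppp1r14a, Nos3 and Rgs5). Of these 5, 3 belong to the steps of contraction, and Nos3 was 18.1 times as high. By the marker rule 17 of 57 were arteriolar, beside 4.76% of all genes, and 1, Rgs2, was glomerular, a share near the 1.48% of all genes.

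Finally, the genes most like each member over the 20 libraries were listed by Pearson's r of log2 CPM, among 11694 genes with a mean of at least 10 CPM in some group. These values are descriptions, since libraries share group, depth and preparation. Ece1 was most like Epas1 (r 0.945), Ccnd2 (0.938), Mmrn2 (0.925), Actb (0.921) and Crim1 (0.920), and r with Epas1 was 0.922 over the 16 microdissected libraries. Edn1 was most like Epha7 (0.892), Hacd4 (0.814), Mical2 (0.813), Cyth3 (0.807) and Nek9 (0.804). Epha7, an ephrin receptor, had group means of 125, 28.8, 0.202, 28.0 and 3.34 CPM in arterioles, glomeruli, capillaries, venules and whole kidney. Ednra was most like Zyx (0.888), Ppp1r12b (0.856), Kcnk3 (0.826), Plekhg2 (0.825) and Pdcl3 (0.812). Zyx encodes a protein of focal adhesions and Ppp1r12b a muscle subunit of myosin phosphatase. Ednrb was most like Shoc2 (0.850), Xpo5 (0.824), Gtf2ird1 (0.812), Dicer1 (0.803) and Cldn15 (0.798). Among the members themselves, r was 0.657 for Ednra with Ece1, 0.588 for Edn1 with Ece1, 0.542 for Edn1 with Ednra and -0.359 for Ednra with Ednrb, over the same 20 libraries.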

How the data were processed

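3′ mRNA libraries (QuantSeq FWD) were made by the authors from microdissected compartments and whole kidney sections, with a low-input protocol and more PCR cycles for microdissected samples. The authors trimmed reads, aligned them with STAR to GRCm38.p6 and counted them per gene with htseq-count. The submitters' processing notes list STAR 2.7, HTSeq 0.13, SAMtools 1.9, FastQC 0.11.8, MultiQC 1.7 and featureCounts. The deposited values are raw counts, whole numbers without normalization. Of 168 columns of per-sample values, 20 were used and 148 were not. Columns were assigned to groups by the table's header lines and names, and nothing ties a column to a labelled replicate. The letters after the name of capillary 96, and a header line that gives 4 hours for these control columns, are not explained in the sources used here. The notes list GRCm39 as well as GRCm38.p6, and GRCm38.p6 was taken from the study's methods.

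Tests used edgeR 4.0.16 under R 4.3.3 (TMM, filterByExpr by group, F test of the quasi-likelihood fit with legacy settings, the version 3 form). All 20 libraries were fitted together for whole kidney (13813 genes), and the 16 microdissected ones for comparisons among compartments (12179 genes). FDR is Benjamini-Hochberg over all genes tested. SE is the absolute log2 fold change over the square root of F. The fits were also run on simulated counts, whose outcome is not given here, and no result above rests on it. The receptor share and the values per pan-endothelial count (pseudocount 0.5 on the log2 scale) were compared by exact two-sided permutation tests. Alternatives were DESeq2 1.42.0 (test and size factors), other filters, the version 4 form, other sets of libraries, Pecam1 as the denominator, a block of column numbers and leaving out each library. Positions are from GENCODE M21 and counted from 1. Named genes were the 4 members, up to 4 genes per list and comparison with the smallest p, list genes called between glomeruli and arterioles, and the 5 genes most like each member, predicted genes passed over. Members, lists and rules were chosen with earlier results of these data known. Some genes of the lists are counted but not reported by name here.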

Additional observations from a re-analysis of the deposited data

Results flagged for a closer look

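Of 45 sets of 4 values checked (CPM, receptor share and values per pan-endothelial count by gene and group), 4 held a library whose gap to the next exceeded Dixon's 95% critical ratio, and chance gives about 1 in 20. Ece1 in arteriole 96, at 781 CPM, stood apart from the other arteriole libraries, in a library that also held the most erythrocyte RNA of the arterioles (76555 CPM). Venule 96 stood apart in Ednra, at 20.2 CPM, with a receptor share of 97.1% and 1.02 counts per 100 pan-endothelial counts, which are 3 views of the same Ednra counts.

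Effects that differed between compartments by a test of the difference itself were those of Edn1 (log2 difference 7.55, FDR 0.00823) and Ece1 (2.58, FDR 0.00839), both higher in arterioles than in peritubular capillaries in 4 of 4 libraries. Both tests are edgeR quasi-likelihood F tests.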

How the results depend on the processing

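The count of member calls against whole kidney, 2 of 16 as reported, was 3 with DESeq2 size factors or the independent filter adapted from DESeq2, 2 with no filter, 4 with the DESeq2 Wald test, 4 with the version 4 form and 5 with only the 8 libraries compared. Calls between compartments, 2 of 24 as reported, were 4 with the independent filter, 8 with the DESeq2 Wald test and 5 with the version 4 form. Marker calls, 1 as reported, were 2 with DESeq2 size factors, with no filter, with the independent filter, with the DESeq2 Wald test and with the version 4 form. Leaving out each library in turn gave 1 to 3 calls against whole kidney, 1 to 2 between compartments and 0 to 3 markers. The lowest counts came without arteriole 96 (1, 1 and 0) and, against whole kidney, also without any 1 whole kidney library (1 each), and the 3 markers without arteriole 100. The cause was not tested. Against whole kidney the further calls were Ednra in arterioles (12 of 27 alternatives), Ece1 in glomeruli (3 of 27) and Ece1 in venules (1 of 27, the 8 libraries alone, FDR 0.0249). Between compartments they were Ece1 in arterioles against venules (4 of 24) and glomeruli (1 of 24), Ednra in arterioles against capillaries and venules (2 alternatives each), and Edn1 in capillaries against glomeruli (2 of 24) and venules (2 of 23). As arteriolar markers they were Ednra (10 of 22) and Edn1 (1 of 22). FDR of Edn1 in arterioles ranged from 0.000158 to 0.0868 over 27 alternatives, and that of Ece1 from 7.89e-09 to 0.00712.

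Of the fold changes against whole kidney, 2 changed sign, and neither was a call. Ednra in venules against whole kidney ranged from -2.56 (without venule 96) to 1.99 with 1 library left out, and Ednrb in capillaries against whole kidney from -0.32 (without capillary 100) to 1.62. Edn1 between arterioles and capillaries was called in 24 of 24 alternatives and Ece1 in 23 of 24. The exact tests gave 0 adjusted calls with each library left out, with Pecam1 as the denominator and with a pseudocount of 1. With so few libraries per group such calls could hardly arise, so these zeros do not show stability. Counts pooled over the 4 libraries gave Ednra shares of 54.1% in arterioles, 24.8% in glomeruli, 16.4% in capillaries, 40.5% in venules and 12.6% in whole kidney, without a test. Deviations from the group mean gave r from -0.0456 to 0.0626 in 40 same-numbered pairs of libraries. With the wide spread within the microdissected groups a shared mouse could go unseen, so these values cannot settle pairing. The numbers were not taken as pairing samples because no source used here says what they are. A replicate block by these numbers gave 2, 2 and 1 calls, the counts reported. With 4 libraries a group and a spread near the mean, differences as large as that of Ednra in arterioles could miss the threshold.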
